A study of Mus musculus and Rattus norvegicus with 32 samples.

Results

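The genes described here encode the intercalated disc, the end-to-end contact between cardiomyocytes. They are the 10 rows whose gene symbol is Gja1, Gja5, Gjc1, Dsp, Pkp2, Dsg2, Dsc2, Jup, Cdh2 or Ctnna3. All 10 were found among the 55487 genes of each of the 3 mouse tables, and 8 were found among the 32883 genes of the rat table, where no row carried the symbol Pkp2 or Ctnna3. Every member found was tested in every table. RNA-seq was performed in 4 comparisons of 4 libraries against 4. Hearts of C57BL/6 mice labelled Mettl5-KO, a germline knockout of the rRNA m6A methyltransferase METTL5, were compared with control hearts at 1 month of age. Hearts labelled Mettl5-cKO, in which Myh6-Cre removes floxed exons of Mettl5 in cardiomyocytes only, were compared with control hearts at 3 months of age. These samples are titled Mettl5-cKO, while their genotype tag reads Mettl5-KO. The same 2 genotypes were compared 4 weeks after transverse aortic constriction (TAC), a surgical pressure overload of the left ventricle, in mice labelled 3 months old. Neonatal rat ventricular myocytes (NRVMs) of Sprague Dawley rats at postnatal day 2 were infected with an adenovirus carrying human METTL5 (AdMettl5) or GFP (AdGFP), and both groups received the hypertrophic agent phenylephrine (PE) at 20 μM for 24 h. Controls were littermates whose exact genotype, such as carriage of Myh6-Cre, is not given in the sources used here, and NRVMs were pre-plated to remove fibroblasts before infection.

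The intercalated disc holds gap junctions, desmosomes and adherens junctions. Gap junctions are channels of connexins that pass current and small molecules from cell to cell, and connexin 43 (Gja1) carries most of this coupling in the ventricle, connexin 40 (Gja5) marks atria and the conduction system, and connexin 45 (Gjc1) is found in the nodes and the early heart. Desmosomes tie the desmin filaments of neighbouring cells together through the cadherins desmoglein-2 (Dsg2) and desmocollin-2 (Dsc2), the armadillo proteins plakoglobin (Jup) and plakophilin-2 (Pkp2), and the linker desmoplakin (Dsp). Adherens junctions anchor the myofibrils through N-cadherin (Cdh2) and catenins, among them αT-catenin (Ctnna3), which is found in heart and testis and binds plakophilin-2. Inherited loss of desmosomal proteins causes arrhythmogenic cardiomyopathy.

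Total counts per library were 20382162 to 21064158 at 1 month, 20503672 to 21739203 at 3 months, 19899033 to 21804907 after TAC and 14324700 to 18085339 in NRVMs. Values below are CPM, counts relative to the library total after TMM, edgeR's correction for differences in RNA composition. The row of Mettl5 itself was not lower in the hearts labelled Mettl5-KO (5.26 to 6.71 CPM, against 4.51 to 5.94 in controls), and it overlapped between the genotypes at 3 months (5.61 to 7.28 vs. 6.87 to 8.12 CPM) and after TAC (5.60 to 7.32 vs. 5.62 to 7.14 CPM). This row counts the whole gene, so it does not test a deletion of some exons. The paper reports that RNA-seq reads over the floxed exons were nearly absent in Mettl5-cKO hearts. In NRVMs the rat Mettl5 row was at 19.1 to 23 CPM with AdMettl5 and at 16.2 to 18 CPM with AdGFP (log2 difference 0.32, edgeR adjusted p = 0.00295), although the transgene is human. Cardiomyocyte markers were high in every library, while of 4 atrial markers Myl7 and Bmp10 were at 0 in all TAC libraries and Myl4 was at 1.31 to 2.60 CPM there. The epithelial marker Epcam was at 0 in all mouse libraries, and after TAC the mesothelial marker Wt1 was at 3.03 to 6.18 CPM and Krt18 at 0 to 8.38 CPM. Libraries also stood apart: Gja1 was nearly missing from 2 control libraries, Mettl5-cKO TAC library 4 lay nearer to the controls than the other 3 of its group in the summed fibroblast markers (850 CPM, against 1845 to 2713 CPM), and TMM factors spread most at 1 month (0.796 to 1.25). No libraries of 1 group agreed within sampling noise (lowest chi-square per degree of freedom 2.19, between AdMettl5 libraries 1 and 2). Nothing in the labels says that a library is a separate animal or culture, so p-values cover the spread between libraries only.

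Levels of the members were first compared per kb of exonic length in mouse hearts. In the 3-month controls Dsp was highest, with 45.7 ± 15.7 CPM per kb (SD, n = 4), followed by Jup with 24.0 ± 0.896 CPM per kb. Gja1 (17.9 ± 2.28 CPM per kb), Pkp2 (17.3 ± 1.62 CPM per kb) and Cdh2 (15.4 ± 5.35 CPM per kb) came next, and their ranges overlapped. The desmosomal cadherins were lower, with 6.97 ± 0.751 CPM per kb for Dsg2 and 5.11 ± 0.433 CPM per kb for Dsc2, and these ranges did not overlap. Among the other connexin and catenin members, Gjc1 stood at 2.37 ± 0.415 CPM per kb, above Ctnna3 (1.14 ± 0.299 CPM per kb) and Gja5 (0.795 ± 0.0931 CPM per kb), whose ranges overlapped. Gja1 was thus above both other connexin genes among the members, Gjc1 and Gja5, in all 4 of these libraries. In controls at 1 month, in a table scaled separately, Dsp was at 18.9 ± 2.26 CPM per kb and Jup at 28.2 ± 4.07 CPM per kb, so their order was the other way round.

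**Figure D1:**
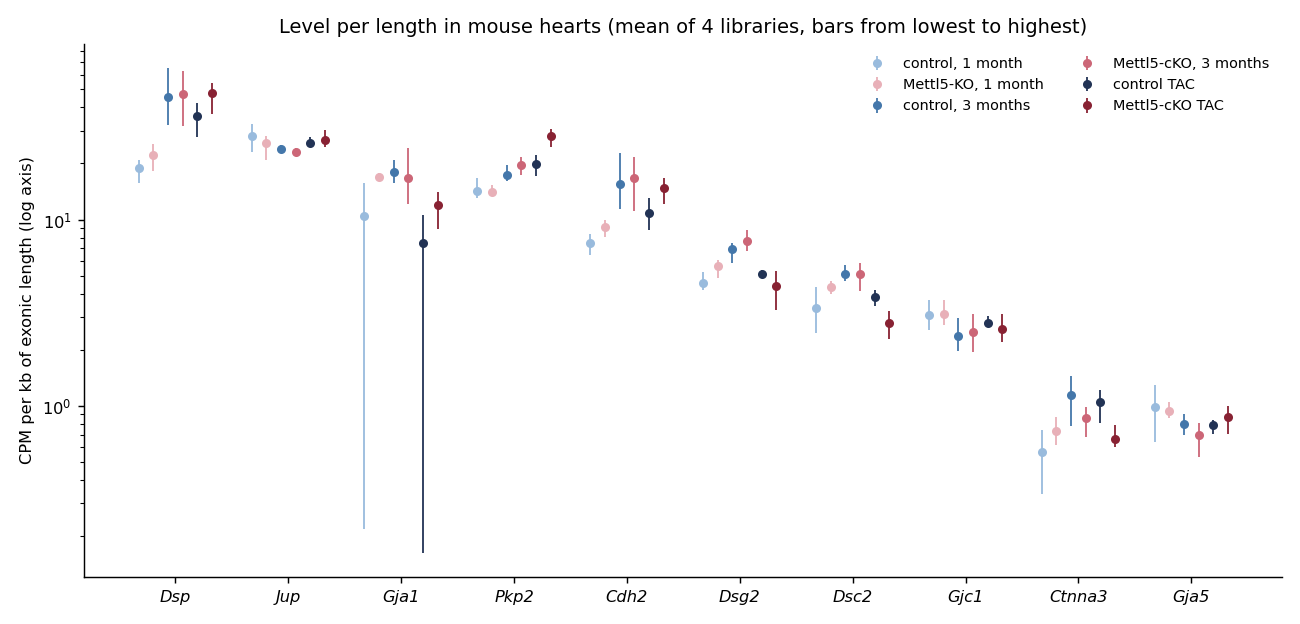
Level of each member in CPM per kb of exonic length (log axis) in the 6 groups of mouse hearts, where points are means of 4 libraries and bars run from the lowest to the highest library. The long bars of Gja1 in controls at 1 month and after TAC come from 1 library each, at 0.218 and 0.162 CPM per kb.

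The proximal promoters of 4 members with different patterns are shown, since Dsp was highest, Ctnna3 was low and lower still in one group, Gja1 dropped in single libraries and Jup was steadiest at 3 months. Each holds the 250 bases before a RefSeq start site (GRCm38.p6), and capitals mark matches on either strand to the searched letters GGGCGG for the GC box of SP/KLF factors, TATAAA for the TATA box, TGANTCA for AP-1, CATTCC for the MCAT element, AGATAA for the GATA factors, TNAAGTG for NKX2-5, AGGTGT for T-box factors and CAGCTG for the E-box.
Dsp, chr13:38151044-38151293, + strand: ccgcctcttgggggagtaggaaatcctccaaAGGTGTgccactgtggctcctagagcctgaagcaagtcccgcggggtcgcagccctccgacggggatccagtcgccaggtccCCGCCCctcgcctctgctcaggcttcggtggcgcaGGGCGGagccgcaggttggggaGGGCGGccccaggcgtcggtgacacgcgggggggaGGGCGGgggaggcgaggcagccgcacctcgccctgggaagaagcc
Jup, chr11:100397791-100398040, - strand: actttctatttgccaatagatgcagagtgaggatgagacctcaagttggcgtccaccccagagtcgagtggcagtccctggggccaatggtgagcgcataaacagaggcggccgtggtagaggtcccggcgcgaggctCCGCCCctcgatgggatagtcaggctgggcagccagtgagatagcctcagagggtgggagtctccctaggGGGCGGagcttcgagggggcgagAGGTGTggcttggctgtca
Gja1, chr10:56377050-56377299, + strand: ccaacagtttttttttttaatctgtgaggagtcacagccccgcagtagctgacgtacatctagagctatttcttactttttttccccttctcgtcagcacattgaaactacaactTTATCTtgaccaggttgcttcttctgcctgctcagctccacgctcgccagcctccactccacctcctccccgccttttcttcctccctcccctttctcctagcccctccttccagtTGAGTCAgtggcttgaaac
Ctnna3, chr10:63429848-63430097, + strand: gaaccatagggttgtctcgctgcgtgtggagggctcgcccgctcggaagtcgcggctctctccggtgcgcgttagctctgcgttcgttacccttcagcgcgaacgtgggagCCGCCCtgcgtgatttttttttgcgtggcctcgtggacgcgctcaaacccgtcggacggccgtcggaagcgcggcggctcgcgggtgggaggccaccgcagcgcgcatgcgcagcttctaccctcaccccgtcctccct
The Dsp window held 4 GC boxes and 1 T-box match, the Jup window held 2 GC boxes and 1 T-box match, and the Ctnna3 window held 1 GC box. The table holds 3 start sites for Ctnna3, of which the first in the gene is shown. The other two windows held no GC box, but 1 MCAT match in one and 1 TATA box, 1 T-box and 1 E-box match in the other, with a GC content of 44.8% and 45.6%. The Gja1 window held no GC box but 1 AP-1 match, 19 bases before the start site, and 1 GATA match. For Gja1 and Jup, unlike Dsp and Ctnna3, the bases just after the start site were in no GENCODE transcript of the gene. The Gja1 distance thus rests on the RefSeq start site alone. Of all 32851 promoters in the table, 32.7% held the GC box, 11.8% the T-box letters, 6.75% the AP-1 letters and 9.99% the GATA letters. No match shown overlaps another, and a match is a run of letters, not a known binding site. GC content was 72.4% for Dsp, 67.6% for Ctnna3, 62% for Jup and 50% for Gja1.

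At 1 month, the comparison asked whether germline loss of METTL5 touches the heart before adulthood. No member passed an adjusted p of 0.05 in the edgeR quasi-likelihood test, where 0.00612% of the 16329 genes tested did. DESeq2 also called 0 members, and 2 members had an unadjusted p under 0.05, against 4.57% of all genes. These were the cadherin genes Dsg2 and Cdh2. Dsg2 was at 43.0, 34.4, 34.8 and 38.9 CPM in control libraries 1 to 4 and at 50.3, 47.7, 47.9 and 39.96 CPM in those labelled Mettl5-KO. Cdh2 was at 51.9, 67.2, 60.5 and 61.6 CPM in controls and at 65.2, 74.1, 75.4 and 79.9 CPM in Mettl5-KO. Both were higher in most Mettl5-KO libraries, but for each gene 1 control library lay inside the Mettl5-KO range. The differences were 0.30 (SE 0.113) and 0.29 (SE 0.111) on the log2 scale, each with an edgeR adjusted p of 0.973.

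The size of the Gja1 difference at 1 month depended on a single library. Control library 2 held 47 counts of Gja1, while the other 7 libraries held 2681 to 3923. In CPM the controls were at 111, 2.23, 162 and 156, and the Mettl5-KO libraries at 165, 176, 173 and 183. All Mettl5-KO libraries were above all controls, which 3.01% of genes showed in either direction, and Gja1 was the only member whose groups did not overlap. This order held without control library 2 as well, by a narrow margin (162 against 165 CPM). The log2 difference was 0.70 (SE 0.806, edgeR adjusted p = 0.973) with all libraries and 0.29 (SE 0.149, edgeR adjusted p = 0.72) without control library 2. The remaining members lay between -0.14 (Jup, 95% interval -0.45 to 0.18) and 0.38 (Dsc2, -0.04 to 0.81). Dsp was 0.23 higher (-0.08 to 0.54) and Pkp2 differed by -0.02 (-0.26 to 0.23), an interval that leaves out differences beyond 0.26 in either direction.

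At 3 months, the question was whether loss of METTL5 in cardiomyocytes alone alters the unstressed adult heart. No member was called by edgeR, where 0.0732% of 16391 genes were, nor by DESeq2, and 0 had an unadjusted p under 0.05, against 7.05% of all genes. The widest difference was that of Ctnna3, which was at 10.5, 5.61, 7.41 and 9.38 CPM in controls and at 7.05, 4.92, 7.14 and 5.67 CPM in Mettl5-cKO. The groups overlapped, and the log2 difference was -0.41 (95% interval -0.86 to 0.05, edgeR adjusted p = 0.76). Jup had the narrowest interval, with a log2 difference of -0.06 (-0.23 to 0.11) and levels of 142 to 162 CPM across all 8 libraries.

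Dsp and Cdh2 varied more between libraries of the same genotype than between genotypes. Dsp was at 628, 323, 313 and 500.5 CPM in control libraries 1 to 4 and at 603, 431, 474.5 and 307 CPM in Mettl5-cKO. Cdh2 was at 183, 91.8, 92.7 and 130.4 CPM in controls and at 174, 138, 136 and 90.2 CPM in Mettl5-cKO. The same libraries were high for both genes, namely control libraries 1 and 4 and Mettl5-cKO library 1, and Mettl5-cKO library 4 was the lowest of its group for both. Fitted differences were 0.04 (95% interval -0.54 to 0.62) for Dsp and 0.11 (-0.45 to 0.68) for Cdh2, so changes of that size could not be seen at this spread. Pkp2, another desmosomal gene, did not share this spread, with 86.8 to 105 CPM in controls and 92.4 to 116 CPM in Mettl5-cKO. Its log2 difference was 0.18 (-0.05 to 0.40). The 3 connexin members differed by -0.09 (Gja1, -0.53 to 0.35), -0.19 (Gja5, -0.55 to 0.16) and 0.07 (Gjc1, -0.33 to 0.46).

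**Figure D2:**
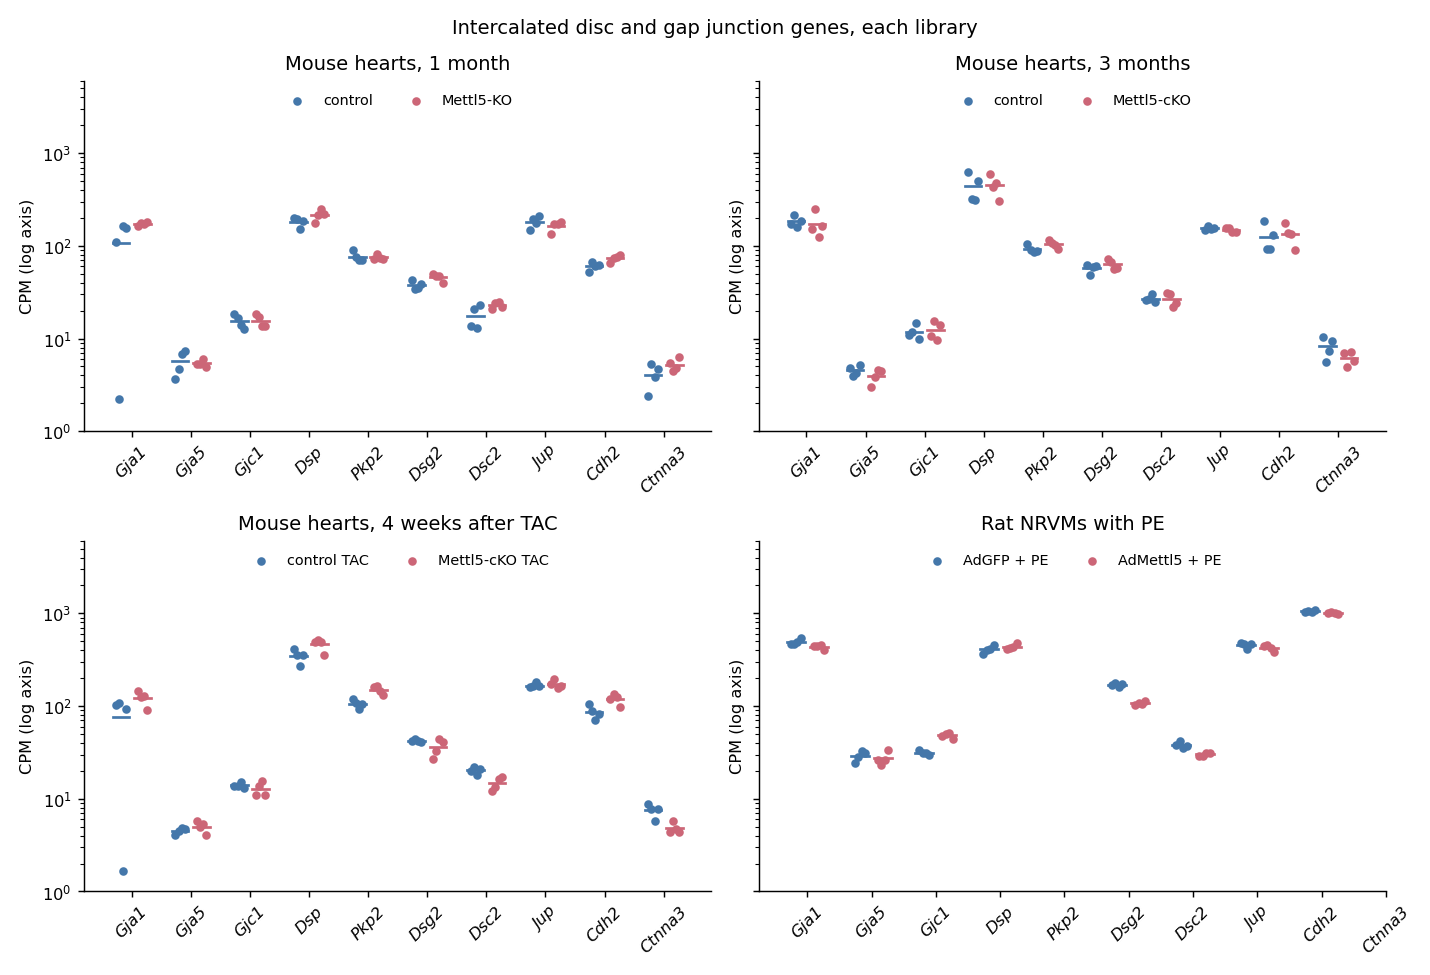
CPM of each member (log axis) in each library of the 4 comparisons, with a line at the mean of 4 libraries; Pkp2 and Ctnna3 were not found by symbol in the rat table. The lowest Gja1 points, at 2.23 CPM at 1 month and 1.67 CPM after TAC, are control libraries, and Dsp and Cdh2 spread widely at 3 months.

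After TAC, where the comparison asked what loss of METTL5 does to the heart under pressure overload, 3 of the 10 members were called. Pkp2 rose while Dsc2 and Ctnna3 fell in Mettl5-cKO hearts, by 1.41-fold, 0.723-fold and 0.637-fold of the controls. This stands beside 12.7% of 16340 genes called in this comparison (6.57% higher and 6.1% lower). None of the 10 reached a 2-fold change (absolute log2 fold change over 1), which 2.9% of genes did with an adjusted p under 0.05. The median log2 difference of the members was 0.10, against 0.00 for all genes tested. DESeq2 called 5 members, adding Cdh2 and Dsp. The share of all genes that DESeq2 called is not given here, and the 12.7% above is that of edgeR.

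Pkp2, whose product links desmoplakin to the cadherins, was at 119, 108, 92.1 and 106 CPM in control TAC libraries 1 to 4 and at 161, 164, 146 and 131 CPM in Mettl5-cKO TAC. Every Mettl5-cKO library was above every control. The log2 difference was 0.50 (SE 0.103, edgeR adjusted p = 0.0182). An exact two-sided permutation test gave p = 0.0286, the smallest that 4 against 4 libraries allow. This value follows from the lack of overlap alone and adds nothing to it, and Dsc2 and Ctnna3 had the same. The call was lost without control library 2 (adjusted p = 0.0505), control library 4 (0.0599) or Mettl5-cKO library 2 (0.0612), with log2 differences of 0.45 to 0.57 over all 8 omissions.

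Dsc2, one of the paired desmosomal cadherins, was at 20.2, 21.98, 18.1 and 21.2 CPM in controls and at 12.01, 13.5, 16.4 and 17.0 CPM in Mettl5-cKO TAC. The groups did not overlap, and the log2 difference was -0.47 (SE 0.121, edgeR adjusted p = 0.0359). The call held without Mettl5-cKO library 4 but was lost without any one of the other 7 libraries, with adjusted p up to 0.107. Dsg2, its partner, was at 41.9, 44.1, 41.7 and 41.0 CPM in controls and at 27.0, 32.8, 43.8 and 41.0 CPM in Mettl5-cKO TAC. Libraries 1 and 2 of Mettl5-cKO were lower and libraries 3 and 4 were level with the controls, for a log2 difference of -0.22 (SE 0.138, edgeR adjusted p = 0.309).

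Ctnna3 was at 8.83, 7.83, 5.83 and 7.71 CPM in controls and at 4.43, 5.70, 4.77 and 4.34 CPM in Mettl5-cKO TAC. The highest Mettl5-cKO library lay just under the lowest control. The log2 difference was -0.65 (SE 0.144, edgeR adjusted p = 0.0227), and the call was lost without control library 2 (adjusted p = 0.0632), control library 4 (0.0704), Mettl5-cKO library 1 (0.0618) or Mettl5-cKO library 3 (0.0551). Pkp2, Dsc2 and Ctnna3 were the 3 members without overlap between the groups, against 18.6% of all genes. With counts scaled by library size alone, which moved the median log2 difference of all genes by 0.147, Dsc2 (adjusted p = 0.106) and Ctnna3 (0.0593) were not called while Cdh2 (0.0295) and Dsp (0.0490) were.

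Dsp and Cdh2 were both higher in most Mettl5-cKO TAC libraries without passing the edgeR test as set. Dsp was at 409, 359, 268 and 357 CPM in controls and at 489, 519.8, 491 and 355 CPM in Mettl5-cKO TAC. Cdh2 was at 105, 88.9, 71.3 and 83.1 CPM in controls and at 119.7, 134.6, 126 and 97.6 CPM in Mettl5-cKO TAC. Control library 3 was the lowest and Mettl5-cKO library 4 the lowest of its group for both genes. The log2 differences were 0.41 (SE 0.152, edgeR adjusted p = 0.10) for Dsp and 0.46 (SE 0.133, edgeR adjusted p = 0.052) for Cdh2. Without Mettl5-cKO library 4 both were called, at adjusted p = 0.017 and 0.012, and Cdh2 was also called without control library 1 (0.0352) and, with all 8 libraries, when at least 10 counts in every library were required (0.0431).

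Gja1 after TAC again held 1 control library apart, with 32 counts in control library 3 against 1828 or more in the other 7. The controls were at 103, 108, 1.67 and 93.3 CPM, and Mettl5-cKO TAC at 145, 125, 128 and 91.3 CPM. The log2 difference was 0.68 (SE 0.753, edgeR adjusted p = 0.585) with all libraries and 0.28 (SE 0.148, edgeR adjusted p = 0.259) without control library 3. Among genes with at least 500 counts in all other libraries, such a drop to 5% or less of the lowest of them was rare in mouse hearts: it occurred once each for Zfp91, Lclat1 and Twsg1 and in 2 comparisons for Gja1, of 2924 to 3514 genes checked per table. No gene of 5425 did so in NRVMs. What lowered Gja1 in these libraries was not tested. Gja5 (log2 difference 0.15, 95% interval -0.13 to 0.43), Gjc1 (-0.12, -0.39 to 0.16) and Jup (0.06, -0.13 to 0.24) were not called, and library size alone turned Gjc1 to 0.04.

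**Figure D3:**
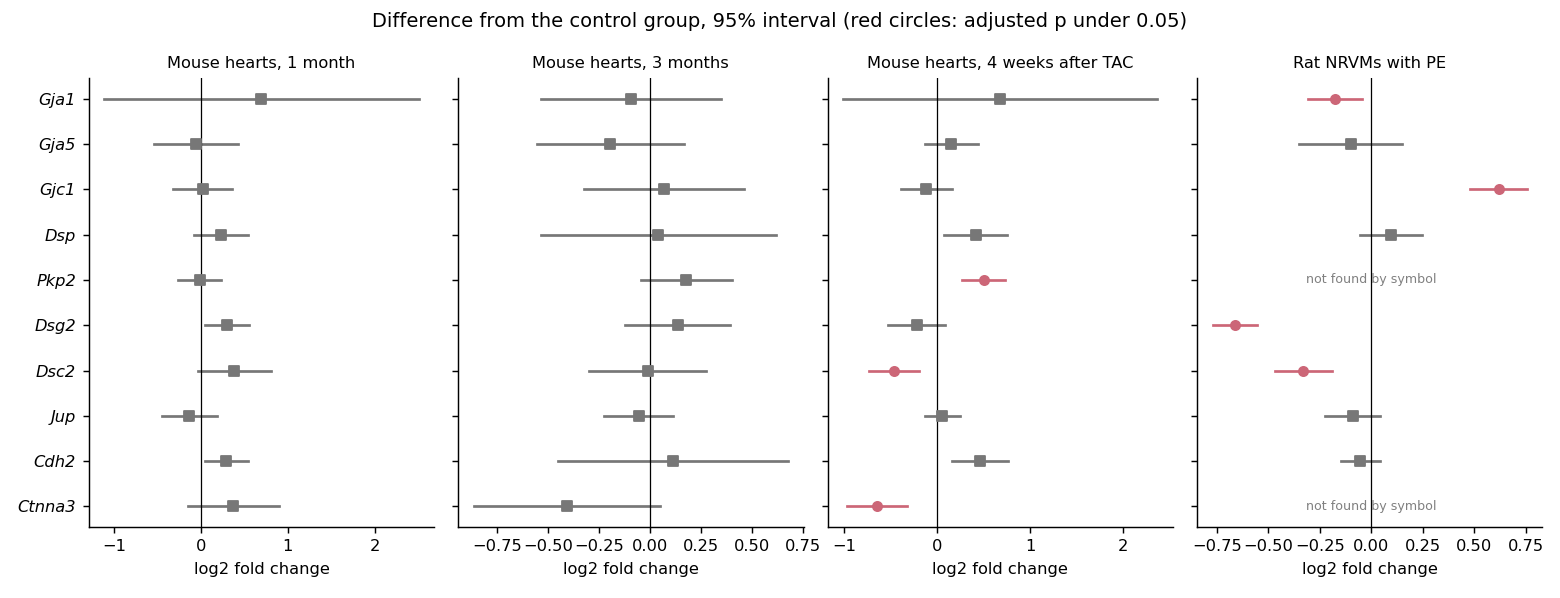
Log2 fold change of each member against the control group in the 4 comparisons, with 95% intervals; red circles have an edgeR adjusted p under 0.05 and grey squares do not. Pkp2, Dsc2 and Ctnna3 are red after TAC and Gja1, Gjc1, Dsg2 and Dsc2 in NRVMs, while no member is red at 1 or 3 months.

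Marker genes of other cells moved in the same comparison. Summed fibroblast markers were at 544 to 704 CPM in controls and at 850 to 2713 CPM in Mettl5-cKO TAC (7 of 8 rose), summed endothelial markers at 641 to 767 vs. 434 to 577 CPM (4 of 6 fell), and 2 of 5 macrophage markers rose. Summed cardiomyocyte markers were at 37140 to 42030 CPM in controls and at 30730 to 37730 CPM in Mettl5-cKO TAC (1 of 10 fell). None of 5 smooth muscle and 5 conduction markers passed, 1 of 4 mesothelial and epithelial markers rose, and the 1 atrial marker tested was not called. At 1 and 3 months no marker gene was called by edgeR. Unstressed Mettl5-cKO hearts at 3 months still leaned the same way, with overlap between the genotypes. Their summed fibroblast markers were at 492 to 699 CPM, against 401 to 530 CPM in controls. Endothelial sums were at 406 to 621 vs. 513 to 803 CPM and macrophage sums at 66.0 to 83.5 vs. 47.5 to 67.7 CPM. In bulk hearts, fewer cells of a type and less RNA per cell cannot be told apart. The part of the shifts after TAC in the changes of Pkp2, Dsc2 and Ctnna3 was not tested. Mettl5-cKO library 4, with the smallest fibroblast sum of its group, was also the group's lowest for Gja1, Gja5, Gjc1, Dsp, Pkp2, Cdh2 and Ctnna3 and its highest for Dsc2.

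Whether the genotype difference itself differed between stressed and unstressed hearts was tested by an interaction. Stressed and unstressed hearts are in separate tables, so surgery and table cannot be told apart in it. No member passed it in edgeR (0.00586% of 17070 genes did) or DESeq2, and 2 had an unadjusted p under 0.05, against 11.8% of genes. These were Pkp2 (0.34 on the log2 scale, SE 0.146, edgeR adjusted p = 0.381) and Dsc2 (-0.44, SE 0.179, edgeR adjusted p = 0.35). Both intervals excluded 0 before adjustment, from 0.03 to 0.65 and from -0.82 to -0.06. The changes of Pkp2, Dsc2 and Ctnna3 are thus not shown to be particular to TAC.

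In NRVMs with PE, the comparison asked what added METTL5 does to hypertrophic cardiomyocytes in culture. Of the 8 members found, 4 were called: Gjc1 rose and Dsg2, Dsc2 and Gja1 fell with AdMettl5. The background was high here, with 52.8% of 15041 genes called, 27.1% higher and 25.7% lower. None of the 4 reached a 2-fold change, which 5.85% of genes did, and the median log2 difference of the 8 was -0.10, against 0.00 for all genes.

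Gjc1, the connexin with low-conductance channels, was at 33.9, 31.3, 30.9 and 29.7 CPM in AdGFP libraries 1 to 4 and at 47.8, 50.5, 51.1 and 43.9 CPM in AdMettl5. The groups were well apart, with a log2 difference of 0.62 (SE 0.0629, edgeR adjusted p = 7.03e-06). Gja1 was at 469, 464, 495.5 and 547 CPM in AdGFP and at 447, 448, 451 and 402 CPM in AdMettl5. It did not overlap either, but the difference was small, at -0.18 on the log2 scale (SE 0.0612, edgeR adjusted p = 0.0285). The Gja1 call was lost without AdGFP library 4 (adjusted p = 0.0818), without AdMettl5 library 4 (0.0764) and with counts scaled by library size alone (-0.04, 0.605), a scaling that moved the median of all genes by 0.135. Gja5 was at 24.5 to 33.0 CPM in AdGFP and 23.1 to 33.5 CPM in AdMettl5, with a log2 difference of -0.10 (95% interval -0.35 to 0.15) that turned to 0.03 with library size alone.

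Both desmosomal cadherins fell. Dsg2 was at 170.0, 177, 159 and 173 CPM in AdGFP and at 102, 108, 104.5 and 114 CPM in AdMettl5, a log2 difference of -0.66 (SE 0.0499, edgeR adjusted p = 6.26e-07). Dsc2 was at 37.6, 41.8, 35.0 and 37.4 CPM in AdGFP and at 29.1, 28.9, 31.2 and 31.4 CPM in AdMettl5, a log2 difference of -0.33 (SE 0.0633, edgeR adjusted p = 0.000878). Neither gene overlapped between the groups, and both calls held in every alternative fit and every omission of 1 library, though neither reached a 2-fold change. In all, 4 members did not overlap, against 48.4% of genes. The remaining members were not called: Dsp differed by 0.10 (95% interval -0.06 to 0.25), Jup by -0.09 (-0.22 to 0.04) and Cdh2 by -0.05 (-0.15 to 0.04). Cdh2 was at 1023 to 1087 CPM in AdGFP and 985 to 1040 CPM in AdMettl5, an interval that leaves out changes as large as those of Dsg2. With library size alone Jup turned to 0.04 and Cdh2 to 0.08, and Dsp passed the test (0.23, adjusted p = 0.0331).

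Summed cardiomyocyte markers fell to 13100 to 14590 CPM with AdMettl5 from 30680 to 38920 CPM with AdGFP (9 of 9 markers fell). Summed fibroblast markers were at 12910 to 14600 vs. 15400 to 16750 CPM (6 of 8 fell), as did 6 of 6 mesothelial and epithelial, 3 of 3 atrial and 2 of 4 macrophage markers. Of 4 endothelial markers 1 rose, of 4 conduction markers 2 rose and 1 fell, and of 5 smooth muscle markers 1 rose and 1 fell. Of 5 macrophage markers Cd163 was at 0 in all 8 libraries and the other 4 were present, with Adgre1 highest (28.5 to 51.5 CPM), and of 5 endothelial markers Emcn was at 0 to 0.291 CPM and Kdr at 16.7 to 35.7 CPM. The atrial markers Myl4 (87.7 to 195.5 CPM) and Myl7 (12.7 to 36.5 CPM) were present in every NRVM library. All 8 fibroblast markers were also present after pre-plating, from Tcf21 (22.7 to 36.9 CPM) to Col1a1 (6610 to 8671 CPM). Values of the members are those of all cells in the culture. The part of these shifts in the changes of Gjc1, Gja1, Dsg2 and Dsc2 was not tested.

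Ratios of 2 members within a library do not depend on scaling between libraries. The 3 pairs were chosen after their values were seen, from members already known to differ, so the ratios are a description with no test. Pkp2 to Dsc2 counts were 5.90, 4.93, 5.10 and 5.01 in control TAC libraries and 13.4, 12.2, 8.89 and 7.71 in Mettl5-cKO TAC. The means were 5.24 ± 0.451 and 10.6 ± 2.69 (SD, n = 4). At 3 months the same ratio was 3.45 ± 0.473 in controls and 3.97 ± 0.493 in Mettl5-cKO, and at 1 month it ran the other way, at 4.68 ± 1.66 in controls and 3.29 ± 0.198 in Mettl5-KO. Gja1 to Gjc1 counts were 15.8 ± 1.98 with AdGFP and 9.05 ± 0.252 with AdMettl5. In the hearts this ratio was 7.46 ± 5.62 and 11.4 ± 2.04 at 1 month, 15.9 ± 3.66 and 13.7 ± 1.85 at 3 months and 5.63 ± 3.69 and 9.67 ± 2.30 after TAC, controls first. After TAC the Mettl5-cKO minus control difference was 1.87 on the log2 scale, but 0.35 without control library 3, which held little Gja1, and at 1 month it was 1.78, but 0.25 without control library 2. Dsg2 to Dsc2 counts were 4.48 ± 0.177 with AdGFP and 3.56 ± 0.164 with AdMettl5. In controls and Mettl5-deficient hearts this ratio was 2.30 ± 0.758 and 2.03 ± 0.254 at 1 month, 2.15 ± 0.325 and 2.38 ± 0.136 at 3 months and 2.08 ± 0.164 and 2.44 ± 0.174 after TAC.

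**Figure D4:**
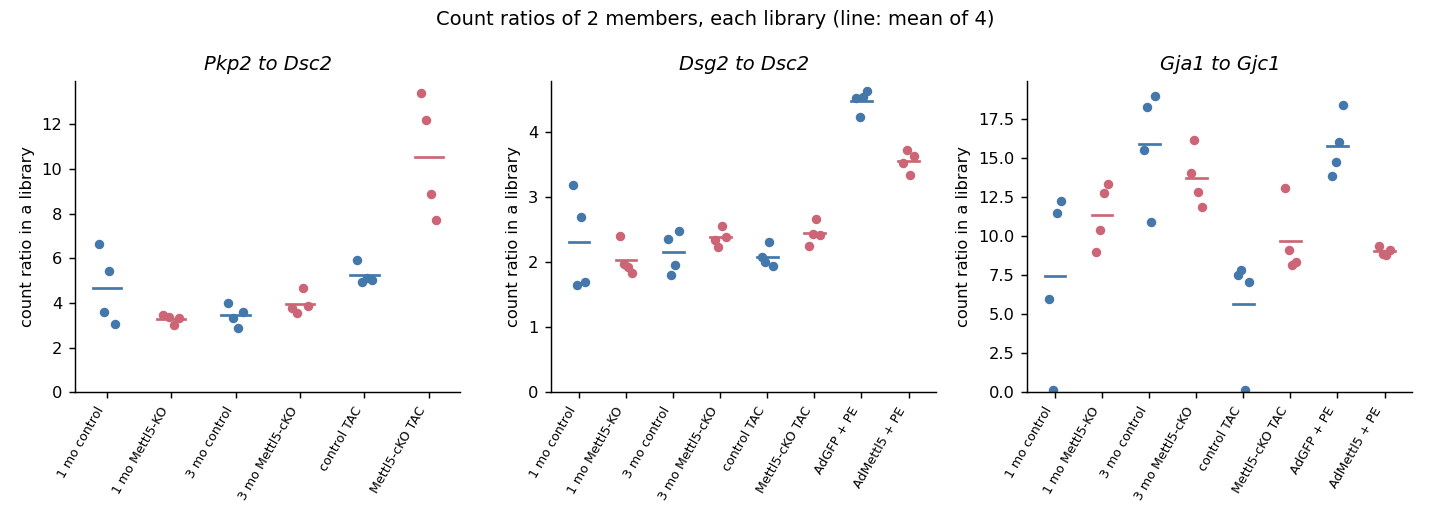
Count ratio of Pkp2 to Dsc2, Dsg2 to Dsc2 and Gja1 to Gjc1 in each library (axes from 0, points are libraries, lines are means of 4). Mettl5-cKO TAC lies at 7.71 to 13.4 for Pkp2 to Dsc2, above all other groups, and the 2 lowest Gja1 to Gjc1 points are the control libraries with little Gja1.

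The other disc genes were read from a list of 50. At 1 and 3 months 39 of them were tested and 0 were called by edgeR. An unadjusted p under 0.05 was found for 5 at 1 month, against 4.57% of all genes. At 3 months it was found for 3, against 7.05% of all genes. DESeq2 called 0 at 1 month and 1 at 3 months (Perp, named after its value was seen). After TAC 13 of 38 were called, 10 higher and 3 lower, beside 12.7% of all genes, with a median log2 difference of 0.10. The count was 6 to 18 when 1 library was left out. Of 8 genes that anchor myofibrils at the disc, 4 rose, among them the actin-binding Xin repeat genes Xirp2 (370 ± 60.6 to 1460 ± 631 CPM, log2 difference 1.98, edgeR adjusted p = 0.0123) and Xirp1 (0.69, 0.0173), and filamin C (Flnc, 0.86, 0.00544). Of the other desmosome genes, desmin (Des, 1.01, edgeR adjusted p = 0.00953) and Perp (0.57, 0.00744) rose and periplakin (Ppl, -1.18, 0.0463) fell. Of the other gap junction genes, the channel Panx1 rose from 1.44 ± 0.212 to 5.64 ± 2.43 CPM (1.97, edgeR adjusted p = 0.0111), and the connexin partner Tjp1 was not called (-0.31, 0.0771). The adherens junction genes were split, with Arvcf higher (0.47, edgeR adjusted p = 0.0247) and Afdn lower (-0.41, 0.0161). Among the 12 channels and membrane partners, Tmem43 (0.37, edgeR adjusted p = 0.0424) rose and the inward rectifier Kcnj2 (-0.91, 0.0208) fell.

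In NRVMs 29 of 41 tested were called, 8 higher and 21 lower, beside 52.8% of all genes, and their median log2 difference was -0.27. All 8 myofibril anchoring genes fell, and those of lowest adjusted p were Ldb3 (-1.50, edgeR adjusted p = 1.45e-08), α-actinin-2 (Actn2, -1.20, 2.61e-08) and Flnc (-0.56, 8.49e-05). Of the adherens junction genes 4 fell, among them αE-catenin (Ctnna1, 1081 ± 122 to 588 ± 9.38 CPM, -0.88, edgeR adjusted p = 1.14e-06), vinculin (Vcl, -0.55, 6.93e-07) and Lmo7 (-0.57, 4.37e-06), and 3 rose, namely Arvcf (0.47), Afdn (0.17) and Ctnnb1 (0.13). Among the channels and membrane partners, Popdc2 (-0.94, edgeR adjusted p = 7.96e-08) and Bves (-0.69, 1.28e-06) fell and Cxadr (0.45, 2.49e-05) and Fgf13 (0.21, 0.0108) rose. Among the other desmosome genes Des (-0.83, edgeR adjusted p = 6.32e-05) and Ppl (-1.15, 0.00015) fell and Dsc3 (0.63, 0.00766) and Pkp1 (0.25, 0.0459) rose. Panx1 rose (0.57, edgeR adjusted p = 4.61e-05) and Tjp1 fell (-0.29, 0.000256). Among the genes named here, Panx1 and Arvcf were thus higher and Ppl lower in both comparisons. Xirp2, Xirp1, Flnc and Des were higher after TAC in Mettl5-cKO and lower with AdMettl5, and Afdn was the reverse. Of the members, Dsc2 was called in both comparisons and was lower in both (-0.47 after TAC and -0.33 in NRVMs).

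**Figure D5:**
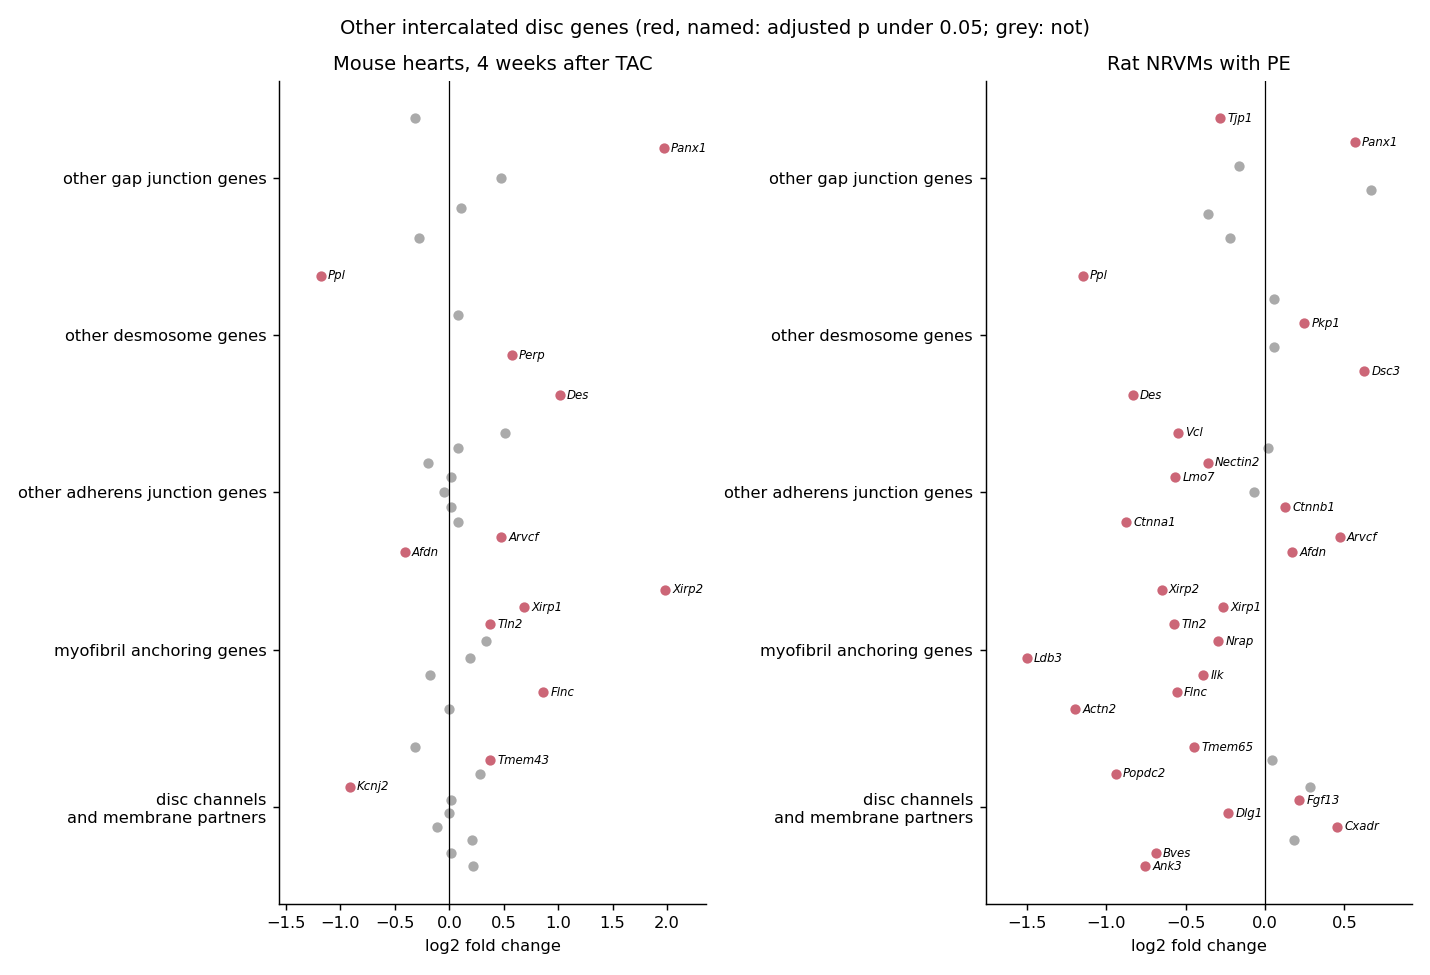
Log2 fold change of the other disc genes after TAC and in NRVMs, by structure, without 2 genes not reported here; red named points have an edgeR adjusted p under 0.05. In NRVMs all 8 myofibril anchoring genes lie below 0, from -1.50 to -0.27, and after TAC Xirp2 and Panx1 lie furthest above it.

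The genes whose profile was nearest to Gja1 were sought among 10878 genes tested in all 4 tables, by the root mean square difference of log2 CPM centred within each table. Over all 32 libraries these were Mtus2 (1.03), Bmpr1a (1.10), Smpdl3b (1.14), Thtpa (1.14) and Ccdc159 (1.15), against a median of 1.45 over all genes, and this distance was set by the 2 libraries with little Gja1. Without them the nearest were Rhbdd1 (0.149), Srd5a3 (0.149), Dab2 (0.159), Selenon (0.164) and Fam20c (0.165), against a median of 0.305. A gene constant within each table would lie at 0.225 without the 2 low libraries and at 1.43 over all 32. A small distance thus need not mean a shared profile. Without the 2 low libraries Jup was the nearest of the members found in all tables, at 0.209 and rank 268. The other members lay between 0.261 and 0.337, farther than a constant gene. No member was thus among the nearest 5 in either setting.

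Some members share bases with a neighbour on the opposite strand. Gja5 shares 165 exonic bases with Gpr89, whose row held 132 to 269 counts where Gja5 held 67 to 141, Dsp shares 499 with Gm10129 (0 to 7 counts) and Dsg2 shares 330 with Gm16090 (0 to 11 counts). The use of strand in counting is not given in the sources used here, so Gja5 values may hold reads of Gpr89 or the reverse.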

How the data were processed

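RNA came from mouse hearts and NRVMs, in 4 tables of 8 libraries each, and NRVM libraries with knockdown of METTL5 were not analysed here. Per the submitters' processing notes, the authors used HISAT2 2.0.4 and StringTie 2.1.4, and they deposited estimated counts per gene as whole numbers, without scaling. The plan had assumed plain counts, and the count tests were applied to these estimated counts, so an error of the estimate itself is not in the p-values. Strandedness is not given in the sources used here. Column names gave the single sample at 1 month and the group elsewhere, and libraries were numbered 1 to 4 by column number.

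One edgeR model per table (edgeR 4.0.16, limma 3.58.1, R 4.3.3) used TMM, filterByExpr (minimum count 10, minimum total 15), glmQLFit and glmQLFTest, on all genes passing the filter, with Benjamini-Hochberg adjustment over them and a threshold of 0.05. The interaction was fitted on the 3-month and TAC tables together. Single values were compared by exact two-sided permutation over 70 labelings. The script was tested on simulated counts with changes larger than that of any member. This does not test how well it finds changes of the size reported here. Alternatives were DESeq2 1.42.0 with its own size factors, those size factors in edgeR, library size alone, no filter, at least 10 counts in every library, an absolute log2 fold change over 1, and the omission of each library. Exonic lengths and positions came from GENCODE (GRCm38), promoters from RefSeq.

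The members, the list of other disc genes and the marker lists were chosen with earlier results of these data known. Named were all 10 members, up to 3 higher and 3 lower genes of smallest adjusted p per list and comparison, the 5 genes nearest to Gja1, and Mettl5. For 2 of the other disc genes values are not reported here, and they are not plotted, but they are in the counts and medians. Tjp1 after TAC, the genes with a single low library and the ratio pairs were named after their values were seen.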

Additional observations from a re-analysis of the deposited data

Results flagged for a closer look

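Of 76 groups of 4 libraries (1 member in 1 group), 3 held a library farther from the others than Dixon's 95% critical value of 0.829 allows, the gap to the nearest library being divided by the group's range. Chance flags about 1 in 20 such groups. Gja1 was lowest in control TAC library 3 (1.67 CPM, next 93.3 CPM, gap share 0.859) and in AdMettl5 library 4 (402 CPM, next 447 CPM, gap share 0.922). Pkp2 was highest in 3-month control library 1 (105 CPM, next 89.6 CPM, gap share 0.848).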

How the results depend on the processing

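At 1 and 3 months and in the interaction, 0 members were called under every alternative. After TAC the members called were 5 with DESeq2, 4 with at least 10 counts in every library, 1 without a filter on low counts, 0 with an absolute log2 fold change over 1 and 0 to 5 when 1 library was left out (0 without control library 2 or 4, and 1 without Mettl5-cKO library 1, 2 or 3). In NRVMs they were 0 with the fold limit and 3 to 4 in the omissions. Other disc genes called were 1 at 3 months with DESeq2, 5 after TAC and 4 in NRVMs with the fold limit, and 6 to 18 after TAC in the omissions. Apart from the fold limit, the shares of all genes called under these alternatives are not given here, so the counts lack a background. No called difference changed sign. Library size alone gave 0.0353 for Gja5 at 1 month, 0.0427 for Dsc2 at 3 months, 0.0410 for Gjc1 after TAC, and 0.0343, 0.0447 and 0.0811 for Gja5, Jup and Cdh2 in NRVMs. Omissions spanned -0.221 to 0.098 (Gja5), -0.0698 to 0.119 (Gjc1) and -0.0593 to 0.0737 (Pkp2) at 1 month, -0.331 to 0.0319 (Gja1), -0.0588 to 0.191 (Gjc1), -0.13 to 0.26 (Dsp), -0.0918 to 0.0664 (Dsc2) and -0.0406 to 0.359 (Cdh2) at 3 months, and -0.00379 to 0.103 (Jup) after TAC. The log2 difference of the Dsg2 to Dsc2 ratio at 1 month ran from -0.272 to 0.0465, the latter without control library 1. The cause of these changes was not tested. Of the refits of single members with all libraries, 233 kept direction and side of the threshold, 6 gained a call, 5 lost one and 6 changed sign, and of those with 1 library left out 424 kept both, 3 gained a call, 16 lost one and 21 changed sign.

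The replicate block could be fitted at 1 month only, where 0 members and 0 other disc genes were called with it, and 1 gene over all genes with and without it. Deviations of same-numbered libraries correlated at 0.239, 0.12, -0.107 and 0.0782, so the numbers were not taken as pairs. No paired analysis was possible because the numbers in the column names of the 3-month and TAC tables match no replicate numbers, and in the NRVM table the columns of both viruses share no number. With 4 libraries per group the median SE of a log2 difference was 0.0807 in NRVMs and 0.135 to 0.175 in the mouse tables, which limits what the latter can show for small changes.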
